A study of Mus musculus with 6 samples.

Results

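The elastic fibre genes measured here are elastin (*Eln*), the fibulins *Fbln1*, *Fbln2* and *Fbln5*, the fibulin-related *Efemp1* and *Efemp2*, the elastin-microfibril interface gene *Emilin1*, and the microfibril-associated genes *Mfap2*, *Mfap4* and *Mfap5*. They were taken by gene symbol from a table of read counts, and all 10 were among its 25140 genes. The counts come from RNA-seq of fibroblasts isolated from the adult heart of C57BL/6 mice and grown to passage 1, with 3 libraries of vehicle-treated cells and 3 of cells treated with 10 ng/ml TGFβ for 24 h. TGFβ drives fibroblasts to become myofibroblasts, cells that contract and lay down matrix. Both groups were kept in 25 mM glucose medium, and serum was lowered from 10% to 1% before treatment, for 16 h by the sample labels and 24 h by the study's methods. The labels and methods call the cells cardiac fibroblasts, while the study's results speak of embryonic fibroblasts (MEFs). No genetic change is given for either group. The study's methods speak of 3 biological replicates, but the sources do not say whether they came from separate hearts. The p-values therefore weigh differences against the spread between these cultures.

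Elastic fibres let tissues stretch and recoil. They have a core of cross-linked elastin laid down on a scaffold of fibrillin microfibrils, and lysyl oxidases make the cross-links. Fibulin-5 (*Fbln5*) and fibulin-4 (*Efemp2*) guide tropoelastin and the cross-linking enzymes to the scaffold, EMILIN-1 (*Emilin1*) sits where elastin meets the microfibril, and MAGP-1 (*Mfap2*), MAGP-2 (*Mfap5*) and MFAP4 bind microfibrils or elastin. In the heart, fibroblasts are a main source of these matrix proteins.

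The genes lie at separate places in the mouse build GRCm38 (mm10) by the GENCODE M21 annotation, and each is protein-coding. *Eln* (ENSMUSG00000029675) lies at chr5:134702593-134747323 (minus strand), and *Emilin1* (ENSMUSG00000029163) lies at chr5:30913402-30921277 (plus strand). *Fbln1* (ENSMUSG00000006369) lies at chr15:85205949-85286535 (plus strand), *Fbln2* (ENSMUSG00000064080) lies at chr6:91212455-91272540 (plus strand), and *Fbln5* (ENSMUSG00000021186) lies at chr12:101746565-101819055 (minus strand). *Efemp1* (ENSMUSG00000020467) lies at chr11:28853204-28926743 (plus strand) and *Efemp2* (ENSMUSG00000024909) lies at chr19:5473954-5482517 (plus strand). *Mfap2* (ENSMUSG00000060572) lies at chr4:141010418-141015984 (plus strand), *Mfap4* (ENSMUSG00000042436) lies at chr11:61485431-61488900 (plus strand), and *Mfap5* (ENSMUSG00000030116) lies at chr6:122505845-122529290 (plus strand). No 75-base window of any of the 10 longest transcripts occurs in a transcript of another gene. Exons of 3 genes overlap a gene on the other strand: *Mapk7* at *Mfap4*, with 5.46% as many counts, *Mus81* at *Efemp2*, with 3.63%, and *Gm30003* at *Eln*, with 0.0024%. Whether counting used the strand is not stated, so these small shares could not be assigned with certainty.

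The libraries held 27851677 to 31072338 counts. Each column of counts is headed by its group alone, without a replicate number. The libraries are called here A, B and C (vehicle) and D, E and F (TGFβ), in the order of the table. Of 9 genes chosen as a check of the TGFβ response, 7 were higher with TGFβ and 0 lower by edgeR's quasi-likelihood test, by DESeq2 and by limma-voom, and at an unadjusted p under 0.05. *Acta2* and *Postn*, both in that list, are loci that the study itself shows from these samples. The study also shows *Pdgfra*, *Col1a1*, *Lox*, *Tgfβ* and *Wnt1*, which are not in that list. Of these, *Lox* rose here (log2 fold change 0.96, edgeR adjusted p = 6.22e-05) and *Pdgfra* fell (-1.37, edgeR adjusted p = 1.77e-05). *Tgfβ* and *Wnt1* are not covered here. All 9 fibroblast markers were expressed, and 7 of them were lower with TGFβ by edgeR, DESeq2 and limma-voom, where 20.1% of all genes tested were lower by edgeR. By edgeR 0 of the 9 were higher, while 1 was higher by DESeq2, by limma-voom and at an unadjusted p under 0.05. For *Col1a1* edgeR's adjusted p was 0.055, with every TGFβ library above the vehicle libraries. Markers of endothelial cells summed to between 446 and 692 CPM (TMM-scaled counts from edgeR's cpm function) with vehicle and between 409 and 566 CPM with TGFβ. Those of leukocytes summed to 238 to 340 CPM and 207 to 308 CPM, those of mesothelium to 25.1 to 91.8 CPM and 16.8 to 48.6 CPM, and those of cardiomyocytes to 38.7 to 60.2 CPM and 27.5 to 40.7 CPM. Of the 21 markers of these 4 cell types that could be tested, 0 passed the threshold by edgeR, 0 by limma-voom and 1 by DESeq2, with 2 at an unadjusted p under 0.05. Markers of smooth muscle summed to 196 to 203 CPM with vehicle and 230 to 288 CPM with TGFβ, with 3 of 6 higher. These 3 were *Smtn*, *Lmod1* and *Cnn1*, and *Cnn1* is also in the list that checked the TGFβ response. *Myh11*, *Des* and *Synpo2* did not pass the threshold. Pericyte markers summed to 224 to 255 CPM and 116 to 142 CPM, where *Notch3* went from 207 ± 16.7 CPM down to 57.3 ± 7.58 CPM (SD, n = 3 each), *Cspg4* rose and *Rgs5*, *Kcnj8* and *Abcc9* did not pass the threshold. *Cd3e*, a T cell marker, was not among the genes listed. The part of other cell types in the results below was not tested, and in bulk RNA fewer cells of a type and less RNA per cell cannot be told apart.

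TGFβ changed the elastic fibre genes in both directions. *Eln*, *Mfap4*, *Mfap5* and *Fbln5* rose, *Efemp1*, *Fbln1* and *Mfap2* fell, and *Fbln2*, *Efemp2* and *Emilin1* did not pass the threshold of 0.05 on edgeR's adjusted p. Thus 7 of the 10 genes were called, where 40.7% of the 14334 genes tested were called, and 4 were called higher, where the share over all genes was 20.5%, and 3 lower, where it was 20.1%. All 10 passed the filter on low counts. In the same 7 genes every TGFβ library lay above, or every TGFβ library below, the 3 vehicle libraries, a pattern found in 53.3% of all genes tested. The median log2 fold change of the 10 genes was -0.03, where that of all genes tested was -0.001. A log2 fold change beyond 1 in size together with the threshold was met by *Efemp1* and *Fbln1*, 2 of the 10, and by 6.77% of all genes tested. Both were falls, so 0 of the 4 genes that rose met it.

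**Figure D1:**
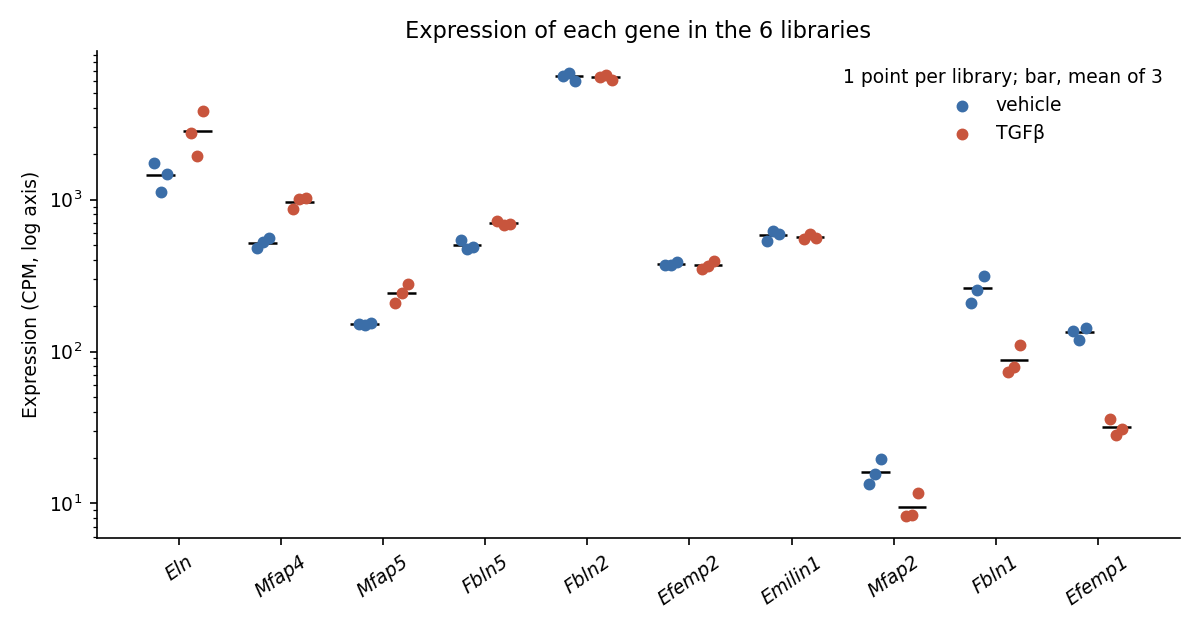
Expression of the 10 genes in each library in CPM on a log axis, with vehicle in blue, TGFβ in red, 1 point per library and a bar at the mean of 3 libraries. The points of *Eln*, *Mfap4*, *Mfap5* and *Fbln5* lie higher with TGFβ, those of *Mfap2*, *Fbln1* and *Efemp1* lie lower, and those of *Fbln2*, *Efemp2* and *Emilin1* overlap.

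**Figure D2:**
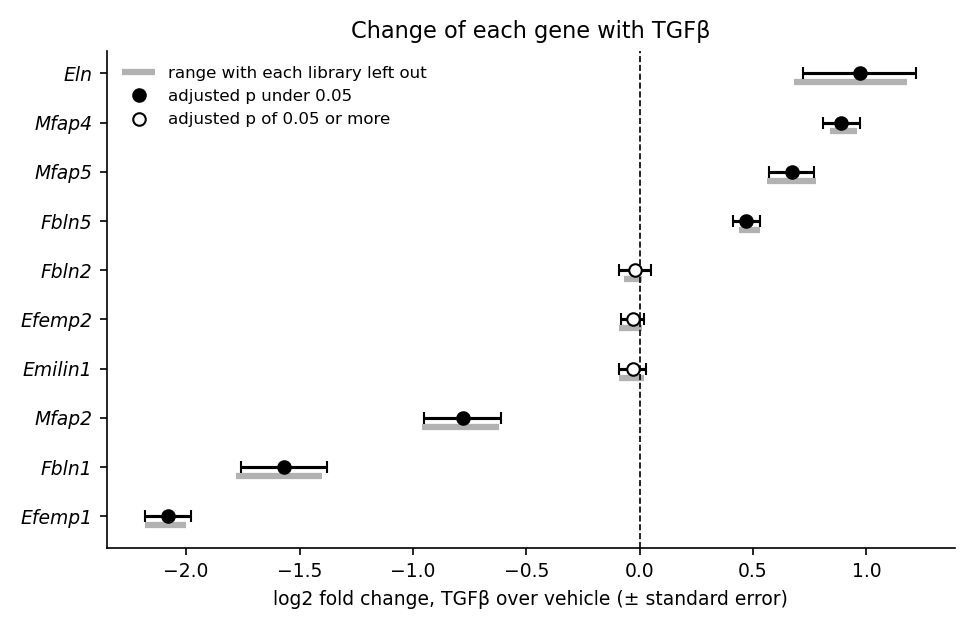
Log2 fold change with TGFβ, relative to vehicle, of the 10 genes as points with the standard error from edgeR, filled where the adjusted p was under 0.05. Grey bars span the values with each library left out in turn, from -2.18 at the low end of *Efemp1* to 1.18 at the high end of *Eln*, whose bar is the widest of the genes that rose.

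*Eln* encodes tropoelastin, the soluble unit of the elastin core. With vehicle, its level was 1734 CPM in library A, 1122 CPM in library B and 1479.8 CPM in library C. With TGFβ it was 2739.9 CPM in library D, 1922 CPM in library E and 3817 CPM in library F. The lowest TGFβ library thus lay above the highest vehicle library, although the gap between them was smaller than the spread within either group. The mean went from 1445 ± 308 CPM to 2826 ± 950.4 CPM (mean ± SD, n = 3 each), which is a log2 fold change of 0.97 (edgeR, SE 0.25, adjusted p = 0.0168), where SE is the standard error of a log2 fold change. Two-sided exact permutation of the libraries gave p = 0.1, the smallest that 3 against 3 allow, for this gene and for each of the others that were called. *Eln* was the most variable of the 10 genes. Its coefficient of variation was 21.3% with vehicle and 33.6% with TGFβ, against medians of 6.15% and 6.63% over all genes tested. Without library B the adjusted p of *Eln* was 0.055 and the call was lost, and over the 12 alternatives it ran from 0.00264 to 0.055. Without library F the log2 fold change was 0.68, the lowest of these values.

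*Mfap4* encodes a fibrinogen-domain protein that binds elastin and microfibrils. Its level was 481, 523 and 557 CPM with vehicle and 871, 1001 and 1026 CPM with TGFβ, so the groups stood well apart. The mean went from 520.2 ± 38.3 CPM to 966 ± 83.4 CPM (mean ± SD, n = 3 each), which is a log2 fold change of 0.89 (edgeR, SE 0.08, adjusted p = 0.000131). *Mfap5* encodes MAGP-2, a small glycoprotein of microfibrils. It had 4854, 4450 and 4625 counts with vehicle and 5672, 6822 and 7925 with TGFβ. In CPM the mean went from 152.5 ± 2.50 to 243 ± 35.3 (SD, n = 3 each), so the libraries varied by 1.64% with vehicle and 14.5% with TGFβ and did not overlap. The log2 fold change was 0.67 (edgeR, SE 0.10, adjusted p = 0.00116). *Fbln5* encodes the fibulin that tethers tropoelastin to cells and microfibrils. It was at 542, 476 and 490 CPM with vehicle and 725, 682 and 686 CPM with TGFβ, a log2 fold change of 0.47 (edgeR, SE 0.06, adjusted p = 0.000703). This was the smallest of the called changes, and its libraries varied little, by 6.98% with vehicle and 3.39% with TGFβ.

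*Efemp1*, which encodes fibulin-3, had the largest change of the 10 genes. Its level was 137, 120 and 144 CPM in the vehicle libraries and 35.9, 28.0 and 30.9 CPM in the TGFβ libraries. The mean went from 133 ± 12.5 CPM to 31.6 ± 3.99 CPM (mean ± SD, n = 3 each), which is a log2 fold change of -2.08 (edgeR, SE 0.10, adjusted p = 9.64e-06). By size this was number 191 among the 14334 genes tested. *Fbln1*, which encodes a fibulin found with fibronectin and in elastic fibres, was at 209, 256 and 315 CPM with vehicle and 73.4, 78.8 and 111 CPM with TGFβ. Its mean went from 259.9 ± 52.9 CPM to 87.8 ± 20.4 CPM (mean ± SD, n = 3 each), which is a log2 fold change of -1.57 (edgeR, SE 0.19, adjusted p = 0.000545). *Mfap2*, which encodes MAGP-1, a fibrillin-binding protein that can also hold active TGFβ, was the least expressed of the 10. Between 426 and 582 reads were counted on it in the vehicle libraries and between 227 and 332 in those with TGFβ. In CPM it was at 13.4, 15.7 and 19.5 with vehicle and 8.30, 8.38 and 11.6 with TGFβ, a log2 fold change of -0.78 (edgeR, SE 0.17, adjusted p = 0.00943).

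Within each group, 4 of the 10 genes ordered the libraries the same way: *Fbln1* and *Mfap2*, which fell, *Mfap4*, which rose, and *Efemp2*, which did not pass the threshold. They were lowest in A and highest in C with vehicle, and lowest in D and highest in F with TGFβ. The summed endothelial markers had that order too, at 446, 511 and 692 CPM in A, B and C and 409, 460.3 and 566 CPM in D, E and F. So had the summed leukocyte markers, at 238, 248.5 and 340 CPM and at 207, 219.6 and 308 CPM, and the summed fibroblast markers, at 50035, 55852 and 60227 CPM and at 47098, 50232 and 53039.8 CPM. The summed markers of mesothelium did not have it, at 91.8, 25.1 and 35.3 CPM in A, B and C and 48.6, 16.8 and 20.2 CPM in D, E and F. Nor did those of cardiomyocytes, smooth muscle or pericytes. The sums for mesothelium and cardiomyocytes were highest in A and D and lowest in B and E, unlike those for smooth muscle and pericytes. This was noticed after the values were seen. Whether columns in the same position of the 2 groups are paired was not tested. Single markers of the endothelial, leukocyte and fibroblast lists lacked the shared order too. They were *Pecam1* and *Tek* (endothelial), *Ptprc* (leukocyte), and *Col1a2*, *Pdgfra*, *Ddr2*, *Thy1* and *Tcf21* (fibroblast). Of the fibroblast list only *Col1a1*, *Col3a1*, *Dcn* and *Lum* had the order. Most of the fibroblast sum was *Col1a1*, *Col3a1* and *Col1a2*, with vehicle means of 19992, 18280 and 13656.5 CPM. The endothelial, leukocyte and fibroblast sums overlapped between the groups, while *Fbln1*, *Mfap2* and *Mfap4* did not. The part of any of these cells in the 4 genes was not tested. The other 6 genes did not have this order. For *Efemp1*, library C was the highest and B the lowest with vehicle, and D the highest and E the lowest with TGFβ. The shared order was noticed after the values were seen. The share of all genes tested that have it was not counted, so it may not be particular to these genes.

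The promoters of the 3 genes that fell and of *Fbln5*, which rose, are shown because they are the genes that fell and the only gene that rose with a promoter entry. RefSeq's table for GRCm38.p6 gave a promoter for 7 of the 10 genes (not for *Eln*, *Mfap4* and *Mfap5*), from 250 bases before the start site to 50 bases after it. Where a gene had several entries, the start site nearest the annotated gene start was taken, and it lay 309 bases from it for *Fbln2*, 384 for *Emilin1* and at most 64 for the others. Motifs were searched on both strands. They were the SMAD box CAGAC, the MCAT box CATTCC that TEAD factors bind, the TATA box TATAAA, an AP-1-like string (TGA, any 1 base, then TCA) and the CArG box of serum response factor. No window held matches of different motifs that overlapped. Capitals mark the matches. The regions are chr11:28852955-28853254 on the plus strand for *Efemp1*, chr15:85205699-85205998 on the plus strand for *Fbln1*, chr4:141010174-141010473 on the plus strand for *Mfap2*, and chr12:101819070-101819369 on the minus strand for *Fbln5*.
*Efemp1* promoter: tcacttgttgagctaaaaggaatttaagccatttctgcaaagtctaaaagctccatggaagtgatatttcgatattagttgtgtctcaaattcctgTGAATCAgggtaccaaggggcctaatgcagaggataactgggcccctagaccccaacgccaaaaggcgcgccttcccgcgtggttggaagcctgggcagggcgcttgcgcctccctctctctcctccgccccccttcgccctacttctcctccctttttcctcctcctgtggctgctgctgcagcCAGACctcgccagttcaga
*Fbln1* promoter: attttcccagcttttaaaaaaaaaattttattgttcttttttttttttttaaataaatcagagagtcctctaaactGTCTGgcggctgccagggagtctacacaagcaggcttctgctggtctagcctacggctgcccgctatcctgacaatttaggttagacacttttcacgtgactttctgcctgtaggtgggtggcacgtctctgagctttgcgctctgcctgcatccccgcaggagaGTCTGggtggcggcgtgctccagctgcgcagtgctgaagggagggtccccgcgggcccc
*Mfap2* promoter: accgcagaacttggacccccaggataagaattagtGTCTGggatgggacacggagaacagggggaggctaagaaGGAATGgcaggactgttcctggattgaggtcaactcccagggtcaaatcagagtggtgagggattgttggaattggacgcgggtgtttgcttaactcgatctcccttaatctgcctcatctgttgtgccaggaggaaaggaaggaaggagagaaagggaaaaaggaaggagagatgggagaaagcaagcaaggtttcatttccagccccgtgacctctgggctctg
*Fbln5* promoter: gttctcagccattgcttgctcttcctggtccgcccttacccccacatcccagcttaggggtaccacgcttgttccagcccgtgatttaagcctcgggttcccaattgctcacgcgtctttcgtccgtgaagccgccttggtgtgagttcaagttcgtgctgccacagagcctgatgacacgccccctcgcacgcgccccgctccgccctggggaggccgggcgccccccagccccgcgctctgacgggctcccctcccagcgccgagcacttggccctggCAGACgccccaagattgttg

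The SMAD box occurred in each of these windows, with 2 matches in *Fbln1* and 1 in each of the others, and it also occurs in 49.6% of the 32851 promoters of the table. *Efemp1* held 1 match to the AP-1-like string, TGAATCA, and 7.81% of all promoters held a match to that string with any middle base. *Mfap2* held 1 MCAT box, found in 14.7%. Neither TATAAA (13.6% of promoters) nor the CArG box (1.63%) was matched in any of the 7 windows. Of the 3 genes that did not pass the threshold, *Efemp2* and *Emilin1* held 2 SMAD boxes each and *Fbln2* held 0. A match is a run of letters and not a measured binding site.

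*Fbln2*, *Efemp2* and *Emilin1* had log2 fold changes close to 0. *Fbln2*, which encodes a large fibulin of vessel walls and basement membranes, was number 8 of the 25140 genes by counts and the most expressed of the 10. It was at 6553, 6819 and 6075 CPM with vehicle and 6404, 6595 and 6132 CPM with TGFβ, and the groups overlapped. Its log2 fold change was -0.02 (edgeR, SE 0.07, adjusted p = 0.802). *Efemp2* encodes fibulin-4, without which elastic fibres do not form. It was at 370.2, 373 and 388 CPM with vehicle and 349, 364 and 394 CPM with TGFβ, a log2 fold change of -0.03 (edgeR, SE 0.05, adjusted p = 0.69). *Emilin1* was at 536, 621 and 589.7 CPM with vehicle and 554, 596 and 557 CPM with TGFβ, a log2 fold change of -0.03 (edgeR, SE 0.06, adjusted p = 0.707). When single libraries were left out, the log2 fold change lay between -0.07 and 0.01 for *Fbln2*, between -0.09 and 0.01 for *Efemp2* and between -0.09 and 0.02 for *Emilin1*. A p above the threshold does not show that these levels were equal.

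Ratios of counts within a library do not depend on how libraries are scaled, and 5 pairs of genes were compared in this way. The log2 ratio of *Efemp1* to *Efemp2* was -1.44, -1.64 and -1.43 with vehicle and -3.28, -3.70 and -3.67 with TGFβ, a difference of -2.05. That of *Fbln1* to *Fbln2* went from a mean of -4.66 ± 0.36 to -6.21 ± 0.37 (SD, n = 3 each), a difference of -1.55. The microfibril pair *Mfap2* and *Mfap5* moved in opposite directions, and their log2 ratio was -3.51, -3.25 and -2.99 with vehicle and -4.64, -4.86 and -4.57 with TGFβ, a difference of -1.44. The ratio of *Fbln5* to *Efemp2* rose from 0.41 ± 0.12 to 0.92 ± 0.13 (SD, n = 3 each), a difference of 0.51. In these 4 pairs the groups did not overlap, and each had p = 0.1 by the two-sided exact permutation test, the smallest possible, and 0.125 adjusted over the 5 pairs, so none passed 0.05. *Eln* and *Mfap4* both rose, by 0.97 and 0.89 on the log2 scale. Their log2 ratio was 1.85, 1.10 and 1.41 with vehicle and 1.65, 0.94 and 1.89 with TGFβ, a difference of 0.04 that was within the spread of either group (exact permutation p = 0.9, adjusted 0.9).

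**Figure D3:**
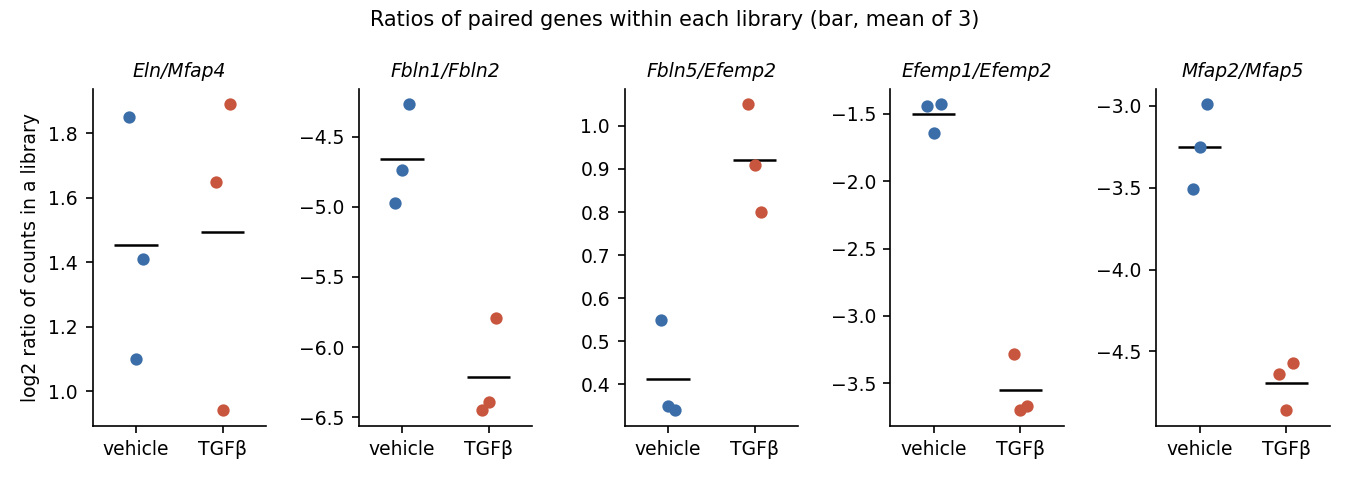
Log2 ratio of the counts of 2 genes within each library for 5 pairs, with vehicle in blue, TGFβ in red, 1 point per library and a bar at the mean of 3. Each panel has its own vertical scale, and the groups overlap only for *Eln* over *Mfap4*.

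Levels of different genes were compared as CPM per kilobase of annotated exon. On this scale *Fbln2* was the highest of the 10 in both groups, at 1018 ± 59.2 with vehicle and 1001 ± 36.6 with TGFβ (SD, n = 3 each), followed by *Mfap4* at 271 ± 19.9 and 503 ± 43.4. *Eln* came next at 178.5 ± 38.0 and 349 ± 117, then *Emilin1* at 118 ± 8.74 and 115 ± 4.74. In the vehicle libraries *Efemp2*, *Fbln5*, *Efemp1*, *Fbln1*, *Mfap5* and *Mfap2* followed in that order, from 99.5 ± 2.46 for *Efemp2* to 13.4 ± 2.55 for *Mfap2*. The ranges of *Fbln5* and *Efemp1* overlapped there, as did those of *Efemp1* and *Fbln1*. In the TGFβ libraries the order after *Emilin1* was *Fbln5*, *Efemp2*, *Mfap5*, *Fbln1*, *Efemp1* and *Mfap2*, from 101 ± 3.42 for *Fbln5* to 7.80 ± 1.58 for *Mfap2*. There the ranges overlapped between *Mfap4* and *Eln*, between *Fbln5* and *Efemp2*, and between *Fbln1* and *Efemp1*. *Mfap5* had been below *Efemp1* and *Fbln1* with vehicle, at 42.5 ± 0.70, and was above both with TGFβ, at 67.8 ± 9.85.

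As a share of the summed level per kilobase, *Fbln2* made up 52.5% ± 2.70 with vehicle and 44.1% ± 3.65 with TGFβ (SD, n = 3 each). *Mfap4* went from 14.0% ± 1.12 to 22.1% ± 1.48 and *Eln* from 9.21% ± 1.96 to 15.2% ± 4.42. *Efemp1* went from 3.38% ± 0.33 to 0.68% ± 0.10, and *Fbln1* from 3.07% ± 0.65 to 0.88% ± 0.16. The shares of *Eln* overlapped between the groups, at 7.12% to 11% with vehicle and 10.7% to 19.5% with TGFβ, while those of the other 9 genes did not on this scale. A share can move because other genes do: the CPM of *Fbln2*, *Efemp2* and *Emilin1* overlapped between the groups and did not pass the test. With the longest transcript as the length, *Eln* took 14.3% and 22.9% and lay above *Mfap4*, at 11.2% and 17.3%, in the means. Their ranges overlapped in both groups, and *Eln* was below *Mfap4* in libraries B and E, so the order of these genes depends on the length used, and the shares of *Fbln5* then overlapped too. In CPM the 10 genes together summed to 10472 ± 258 with vehicle and 12177 ± 784 with TGFβ (SD, n = 3 each), and the groups did not overlap. Without *Eln* the sums were 9027 ± 312 and 9351 ± 214 CPM and overlapped (exact permutation p = 0.3). Most of that sum was *Fbln2*, and without *Eln* and *Fbln2* the sums were 2544 ± 109 and 2974 ± 139 CPM and did not overlap (exact permutation p = 0.1).

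**Figure D4:**
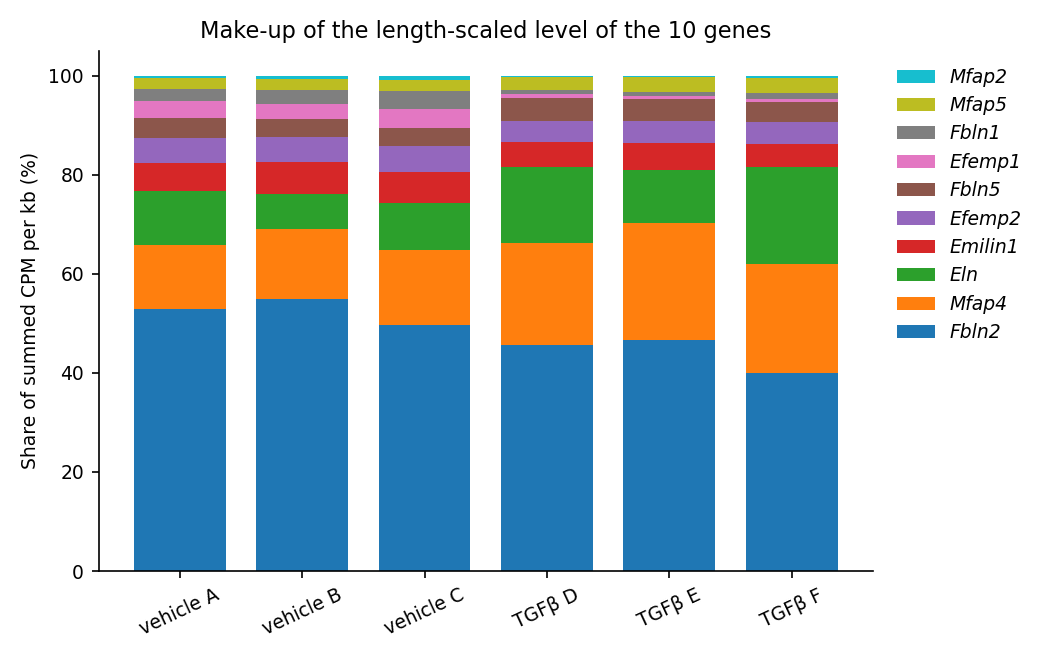
Share of each of the 10 genes in their summed CPM per kilobase of exon, as stacked bars of 100% for the 6 libraries. *Fbln2* takes the largest share in every library, between 39.9% and 55.0%, and the bands of *Mfap4* are wider and those of *Efemp1* and *Fbln1* narrower in the TGFβ libraries.

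The rest of the elastic fibre pathway was described with 8 lists of 61 genes, of which 55 could be tested. By edgeR's test 21 were higher and 16 lower with TGFβ, so 67.3% were called, against 40.7% of all genes. Of the fibrillins, which form the backbone of microfibrils, and the latent TGFβ binding proteins, 5 of 6 rose and 1 fell, with a median log2 fold change of 0.69. The largest rise was that of *Ltbp2* (log2 fold change 3.12, standard error 0.09, edgeR adjusted p = 3.48e-06), from 230.3 ± 22.6 CPM to 2005 ± 118 CPM (SD, n = 3 each). *Fbn2*, a fibrillin best known from development, fell to 6.34 ± 0.37 CPM from 24.9 ± 1.34 CPM (SD, n = 3 each). *Fbn1*, the main fibrillin of adult microfibrils, rose to 5199.7 ± 587 CPM from 3905 ± 224 CPM (SD, n = 3 each). It was named here for its role and after its values were seen.

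The lysyl oxidases, which cross-link elastin and collagen, rose in 5 of 5 cases. Their log2 fold changes were 0.96 for *Lox*, 0.17 for *Loxl1*, 1.06 for *Loxl2*, 1.78 for *Loxl3* and 1.08 for *Loxl4*. *Loxl1*, the family member tied most closely to elastin and to fibulin-5, had the smallest rise, from 850 ± 26.7 CPM to 957 ± 23.4 CPM (SD, n = 3 each, edgeR adjusted p = 0.0223). When library A, B, E or F was left out, 4 of the 5 were called. Among other fibulin and EMILIN family genes, 2 of 6 tested fell and 0 rose, by edgeR, DESeq2 and limma-voom alike, and 0 were higher and 3 lower at an unadjusted p under 0.05. Their largest fall was that of *Fbln7* (log2 fold change -2.10, edgeR adjusted p = 0.000431), and *Emilin3* was not among the genes listed. The 4 genes named *Mfap* outside the 10 were *Mfap1a* (log2 fold change -0.17), *Mfap1b* (-0.15), *Mfap3* (-0.04) and *Mfap3l* (0.24). *Mfap1a* and *Mfap1b* encode a splicing factor despite their name. Of these, 0 passed the threshold by edgeR, DESeq2 or limma-voom, 2 had an unadjusted p under 0.05, and 1 was called without library C.

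Of the 8 ADAMTS and ADAMTSL genes tied to microfibrils 2 rose and 3 fell. *Adamts6*, a secreted metalloproteinase, had the largest rise (log2 fold change 1.80, edgeR adjusted p = 1.03e-05) and *Adamtsl4*, a fibrillin-binding protein without protease activity, the largest fall (-1.0, edgeR adjusted p = 0.00163). Of 11 elastin receptors and integrins 5 rose, led by *Itga5* (1.15, edgeR adjusted p = 0.000121), and 4 fell, led by *Itga8* (-1.03, edgeR adjusted p = 0.000264). Of the elastin-degrading proteases 4 of 9 tested fell (3 by limma-voom) and 0 rose, with 0 higher also by DESeq2, by limma-voom and at an unadjusted p under 0.05. The largest fall was that of *Mmp12*, the macrophage elastase, from 48.1 ± 7.57 CPM to 22.1 ± 2.32 CPM (SD, n = 3 each, edgeR adjusted p = 0.000386). The number of proteases that fell was 2 without library C, without library D and without library E. Of 6 protease inhibitors tested 4 rose and 2 fell, and the largest fall was that of *Timp2*, which inhibits matrix metalloproteinases (-0.83, edgeR adjusted p = 1.36e-05).

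**Figure D5:**
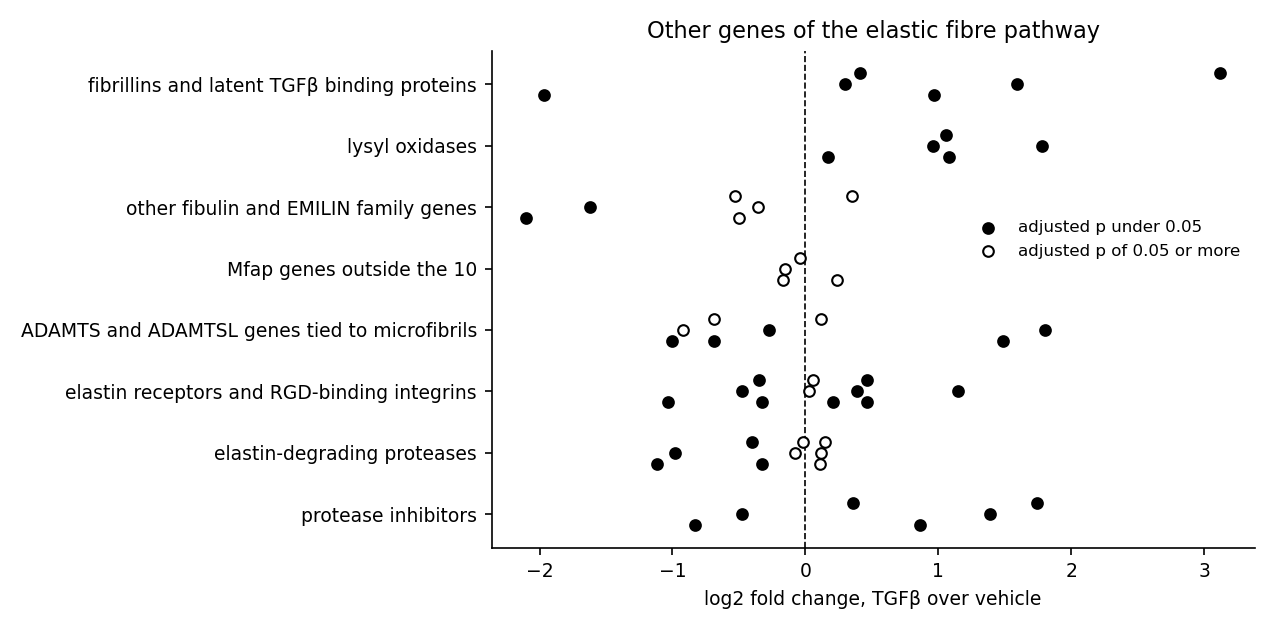
Log2 fold change with TGFβ, relative to vehicle, of the 55 tested genes of 8 elastic fibre lists, 1 point per gene, filled where edgeR's adjusted p was under 0.05 and spread vertically only to keep points apart. All 5 lysyl oxidases and 5 of 6 fibrillins and latent TGFβ binding proteins lie to the right of 0 as filled points, and no protease lies to the right as a filled point.

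The genes whose log2 CPM followed *Eln* most closely over the 6 libraries, out of 10363 genes averaging 5 CPM or more, were *Ddx18* (Pearson's r = 0.997), *Mrps2* (0.994) and *Mindy4* (0.993). The 6 points share 2 groups and each library's scaling. The highest of so many correlations over so few points can lie near 1 by selection alone. Whether any of these 3 genes is linked to *Eln* was not tested. Their changes were far smaller than that of *Eln*, with log2 fold changes of 0.17, 0.18 and 0.19, and 0 of the 3 passed the threshold by edgeR (adjusted p = 0.0501, 0.0507 and 0.149).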

How the data were processed

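RNA-seq of polyadenylated RNA was performed on the 3 vehicle and 3 TGFβ cultures with a stranded kit and single-end reads of 75 bases. The authors aligned reads to mm10 and named DESeq2. The aligner, the counting tool, the annotation and the use of strand are not given in the sources used here. The authors deposited whole-number counts of reads per gene without normalization, together with their mean of normalized counts (a signal over all libraries, not used here) and their own fold changes and p-values, which were not used.

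Libraries were scaled with TMM factors and CPM computed in edgeR 4.0.16 (R 4.3.3). Of the table's genes, filterByExpr kept 14334, on which edgeR's quasi-likelihood test compared TGFβ with vehicle, without covariates. P-values were adjusted by Benjamini-Hochberg over these genes, and 0.05 was the threshold. A standard error (SE) was taken as the size of the log2 fold change over the root of F. Single values were compared by exact permutation of libraries, and ratios had 1 count added. Exon lengths were the union of exons in GENCODE M21, which held 25086 of the table's genes. Counting error is small at these depths, and relative to the level it is largest for *Mfap2*, with 227 to 582 reads. Replicates differed by more than counting noise (chi-square per gene 7.98 to 26.9). On counts simulated for the 25140 genes with 200 changed, edgeR recovered 66% of changes of 0.5 and 91% of changes of 1 on the log2 scale. The simulation gave every gene the same variation between replicates beyond counting noise, 7.97%, and changed fewer genes than were called in the data. These shares do not apply to genes that varied more, such as *Eln*.

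The genes, the lists and the tests were chosen with earlier results of these data known. Named are the 10 genes, every gene of lists of 5 or fewer, the called gene with the largest rise and fall in each other list, and the 3 genes most like *Eln*. *Fbn1* and single cell type markers, including *Pdgfra*, *Col1a1* and those of pericytes, were named after the values were seen. The shared order of the libraries was also described after the values were seen. Alternatives were median-of-ratios and upper quartile scaling, DESeq2 1.42.0, limma-voom (limma 3.58.1), other filters, each library left out, stricter thresholds and transcript length. Protein sequences were not analysed here, and the result for 1 gene that the rule takes in is not reported here.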

Additional observations from a re-analysis of the deposited data

How the results depend on the processing

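Over 6 alternatives of scaling, tool and filter and 6 with a library left out, *Efemp1*, *Fbln1*, *Mfap2*, *Fbln5*, *Mfap4* and *Mfap5* stayed called in their direction. In these fits *Eln* stayed called except without library B (log2 fold change 0.81, adjusted p = 0.055 from edgeR), with values from 0.68 to 1.18 over the libraries left out. The uncalled genes crossed 0 with a library left out, *Fbln2* between -0.068 and 0.014, *Emilin1* between -0.091 and 0.016 and *Efemp2* between -0.088 and 0.008, and the ratio of *Eln* to *Mfap4* between -0.157 and 0.32. At an adjusted p of 0.01, 3595 of all genes were called, and 3 of the 10 genes were called higher, since *Eln* (adjusted p = 0.0168) was lost. With a log2 fold change beyond 1, 971 genes were called and 0 of the genes that rose. With the longest transcript as the length, 12 of 20 shares moved by more than their SD. No paired analysis was possible because the columns of counts carry no replicate numbers. With 3 libraries a group no single value could reach p = 0.05 by permutation.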
